A study of Homo sapiens with 10 samples.

Results

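The response to glucose starvation was compared between MDA-MB-231 clones that lack BACH1 and clones that keep it. For each clone the response of a gene was the log2(TPM + 1) value without glucose minus the value with glucose, where TPM is a transcript level corrected for transcript length and scaled to the same total in every library. Symbols that a spreadsheet had turned into calendar dates were left out, and a gene was kept when 2 or more of the 10 libraries reached 5 TPM, which left 10626 of 36432 genes. RECK and SLC16A7 had second-highest values of 5.0006 and 5.0007 TPM, just inside this limit, and CACNB4 and SHPRH had 4.9995 and 4.9981 TPM, just outside it.

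The MDA-MB-231 line comes from a human breast cancer without hormone receptors. RNA sequencing was run on BACH1 KO clones 1, 2 and 3, made with CRISPR and each grown from a single cell, and on Ctrl clones 1 and 2, which are wild type for BACH1. Every clone was cultured for 40 h in DMEM with 0 g/L or 4.5 g/L glucose, giving 1 library per clone and glucose level and so 3 BACH1 KO and 2 Ctrl responses. A clone stands for a genotype and for its own history, so a difference between genotypes was set against the spread between clones, which were few.

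BACH1 is a transcription repressor that binds heme and sits, with small MAF proteins, on antioxidant response elements, where it keeps HMOX1 and other heme, iron and redox genes low. Heme or oxidative stress takes it off those elements, and NRF2 can then occupy them. Loss of glucose starves cells of energy and of sugar for glycosylation, which brings on the unfolded protein response and the ATF4 program, with stress, inflammatory and cell cycle genes moving along with it.

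BACH1 transcripts measured 12.6, 23.9 and 17.2 TPM at 0 g/L and 5.18, 2.84 and 3.42 TPM at 4.5 g/L in BACH1 KO clones, against 19.7 and 20.6 TPM at 0 g/L and 8.61 and 8.13 TPM at 4.5 g/L in Ctrl clones. The level at 4.5 g/L was lower in every BACH1 KO clone than in either Ctrl clone, and the levels at 0 g/L overlapped. The responses of BACH1 itself, 1.14, 2.70 and 2.04 in BACH1 KO clones, against 1.11 and 1.24 in Ctrl clones, also overlapped. An edit that breaks the protein can leave its transcript, so these values do not check the knockout. In a check of cell identity, 10 of 10 marker genes of MDA-MB-231 cells were at 5 TPM or more in every library. Of 18 markers of luminal, kidney-line, fibroblast and leukocyte cells, 13 were below 1 TPM in every library and 3 were at 5 TPM or more in every library, and the summed level of the 18 was 123 to 174 TPM in BACH1 KO libraries and 122 to 186 TPM in Ctrl libraries.

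BACH1 KO clone 1 stood apart from the other clones over all genes. The SD of its responses over genes was 0.54, against 0.66 to 0.71 in the other 4 clones, and the slope of its responses on the mean of the others was 0.70, against 0.97 to 1.09. Transcripts of the mitochondrial genome made up 29.1% of its TPM at 0 g/L and 29.7% at 4.5 g/L. Those shares were 22.4% to 23.6% at 0 g/L and 26.9% to 27.9% at 4.5 g/L in the other BACH1 KO clones, against 23.3% to 24.7% at 0 g/L and 26.1% to 27.1% at 4.5 g/L in Ctrl clones. Many results that turn on BACH1 KO clone 1 are given with and without it, though not for every gene.

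Among genes whose responses separated the genotypes, smaller responses in BACH1 KO clones were more frequent than larger ones, and this balance depended on BACH1 KO clone 1. The responses of the 3 BACH1 KO clones all lay above both Ctrl responses for 1041 genes (9.80% of those tested) and all below for 646 genes (6.08%), so that 1687 genes (15.9%) did not overlap. Few of these differences were large: 167 genes differed by more than 0.5 and 28 by more than 1 on the log2 scale. Only HMOX1, the clone-based transcript AP000781.2 and the ribosomal RNA pseudogene RNA5SP217 passed the test across all genes (3 genes, 0.0282%, limma with Benjamini-Hochberg adjustment), and 269 genes (2.53%) had an unadjusted p below 0.05. The other genes are therefore given as values whose genotypes separate, without a claim that each passed the test. For a single gene, an exact two-sided permutation test of 3 clones against 2 cannot go below 0.2. Full separation is the outcome with that p, so a share of 0.2 of genes would separate if clones were exchangeable. The 15.9% found was not above that share, so the number of non-overlapping genes is not by itself a result about genotype.

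Non-overlapping genes were divided by their pattern. A gene was called opposite where every Ctrl clone moved one way and every BACH1 KO clone the other. Otherwise it was called blunted where the mean BACH1 KO response was smaller in size than the mean Ctrl response and enlarged where it was larger, and named a rise or a fall after the larger of these means. A blunted or enlarged gene could thus have means of opposite sign, as the pseudogene RPL3P4 described later did. Blunted falls were the most numerous at 851 genes, followed by 309 enlarged falls, 286 blunted rises and 135 enlarged rises. Opposite patterns were found in 51 genes that moved up in Ctrl and 55 that moved down in Ctrl. Blunted patterns thus made up 67.4% of the 1687 genes, but without BACH1 KO clone 1 they made up 44.8% (1631 of 3639 genes) and enlarged patterns 47.5%. Without one of the other clones the blunted share was 60.5% to 70.0%. The direction also moved with scaling: BACH1 KO responses lay above in 61.7% of the non-overlapping genes as deposited and in 44.8% after size factors from the median ratio, where 725 lay above and 893 below. The median difference over all genes was 0.02 as deposited and -0.01 with those size factors.

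**Figure D1:**
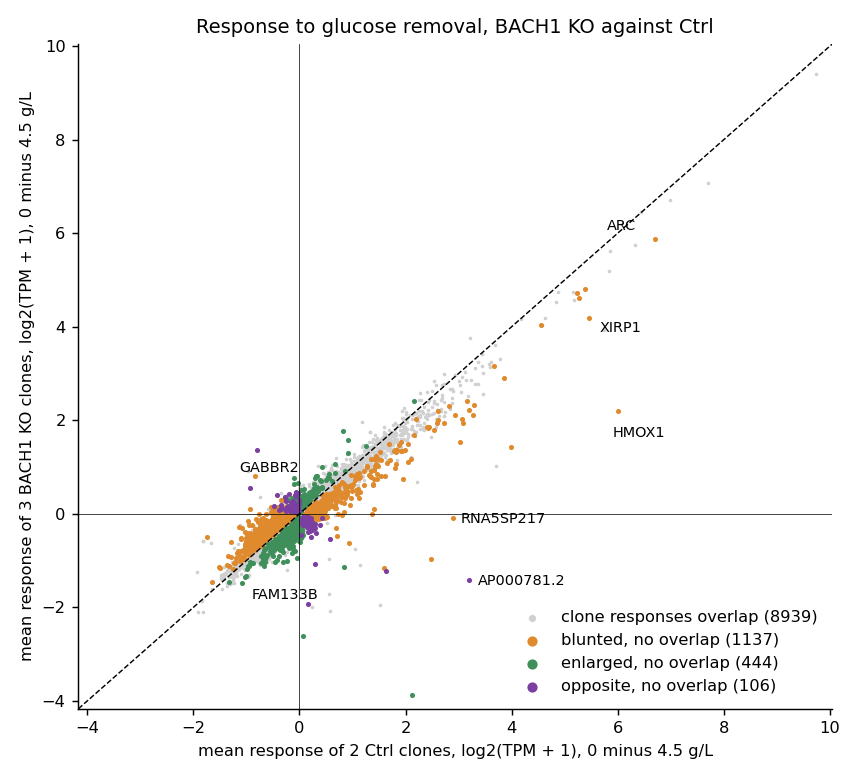
Mean response of the BACH1 KO clones (vertical axis, log2 scale, n = 3) against that of the Ctrl clones (horizontal axis, log2 scale, n = 2) for the 10626 genes, with non-overlapping genes coloured by pattern. Most genes lie near the line of equal response, and HMOX1, AP000781.2 and RNA5SP217, the 3 genes that passed the test, lie below it.

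A difference between responses can arise in either medium, so the levels were compared too. Among the 286 blunted rises, 71 had all BACH1 KO clones above both Ctrl clones at 4.5 g/L and 67 had them all below at 0 g/L. Among the 851 blunted falls, 337 were lower in BACH1 KO clones at 4.5 g/L and 143 were higher at 0 g/L, in the same sense of levels that did not overlap. The 309 enlarged falls divided evenly, with 68 higher at 4.5 g/L and 67 lower at 0 g/L in BACH1 KO clones. On the linear scale of TPM, where a response is a difference and not a ratio, 1377 of the 1687 genes kept their direction, 307 overlapped and 3 took the other direction. These 3 were HMOX1, FTH1 and CST7.

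HMOX1, which encodes heme oxygenase-1, the enzyme that opens heme and frees its iron, is at chr22:35380361-35394214 on the plus strand (GRCh38). Its level was 1356, 1780.0 and 2033 TPM at 0 g/L and 274, 470.4 and 394 TPM at 4.5 g/L in BACH1 KO clones, against 532 and 568 TPM at 0 g/L and 6.58 and 8.78 TPM at 4.5 g/L in Ctrl clones. BACH1 KO clones were higher in both media, and by far more with glucose: the log2 level difference was 5.43 at 4.5 g/L and 1.63 at 0 g/L. The responses of HMOX1 were 2.31, 1.92 and 2.37 in BACH1 KO clones, against 6.13 and 5.86 in Ctrl clones. The difference of -3.80 (SE 0.15) had an adjusted p of 2.6e-05 by limma with Benjamini-Hochberg adjustment, and ranged from 7.88e-06 to 0.0524 over the alternatives tried, where it missed 0.05 only with no filter on low values. In TPM the order turned round, since starvation added 1083, 1309.6 and 1639.6 TPM in BACH1 KO clones, against 525 and 559.6 TPM in Ctrl clones. The smaller ratio of HMOX1 in BACH1 KO clones therefore went with a larger gain in transcript level from a higher start.

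**Figure D2:**
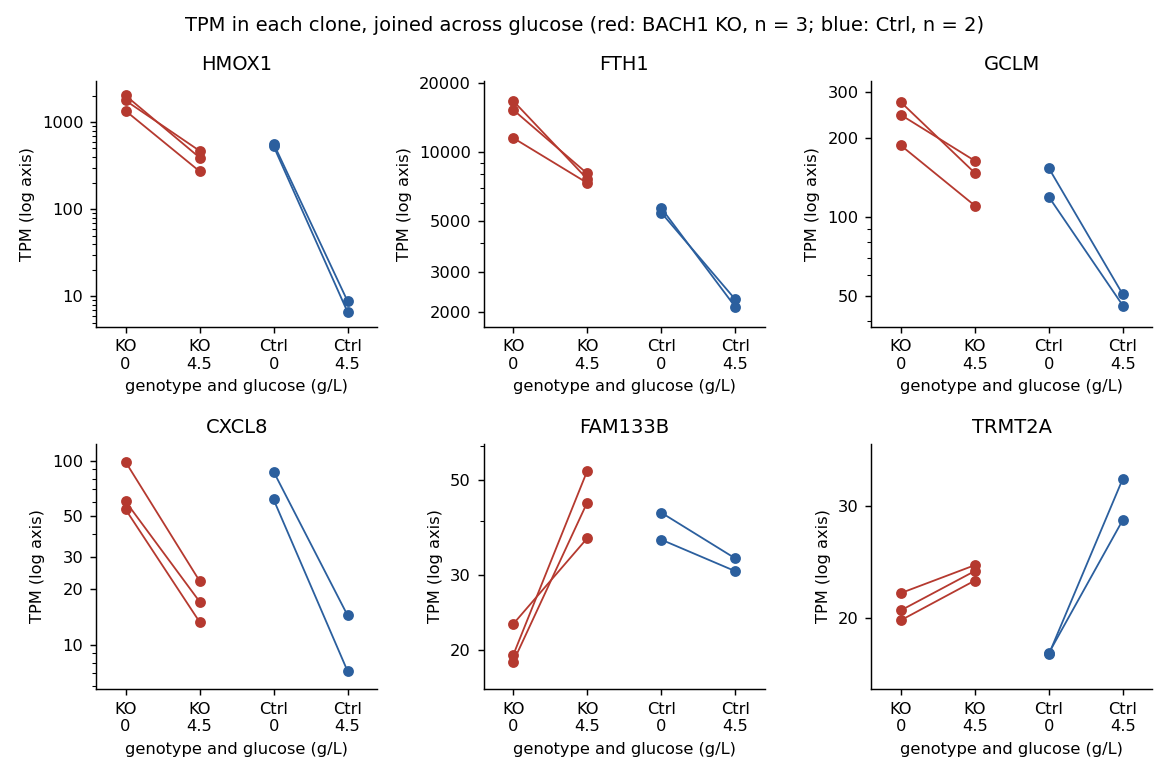
TPM (log axis) of genes described in the text in each library, one point per clone and a line joining the media of a clone, with BACH1 KO (red) to the left of Ctrl (blue) and 0 g/L to the left of 4.5 g/L glucose. For HMOX1 the 2 Ctrl clones at 4.5 g/L lie at 6.58 and 8.78 TPM, while the lowest BACH1 KO library is at 274 TPM.

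Ferritin followed the same form at a smaller size. FTH1, the heavy chain that stores and oxidises iron (chr11:61959718-61967634, minus strand), measured 15349.9, 11557 and 16800.5 TPM at 0 g/L and 8072, 7340.2 and 7641 TPM at 4.5 g/L in BACH1 KO clones, against 5704 and 5444 TPM at 0 g/L and 2104 and 2269 TPM at 4.5 g/L in Ctrl clones. All BACH1 KO libraries were above all Ctrl libraries. FTH1 responses were 0.93, 0.65 and 1.14 in BACH1 KO clones, against 1.44 and 1.26 in Ctrl clones, a difference of -0.44 (SE 0.14) that did not pass the test (limma, Benjamini-Hochberg adjusted p = 0.999). In TPM the gain was 7277, 4217 and 9159 in BACH1 KO clones, against 3600.1 and 3175 in Ctrl clones. For the light chain FTL the responses of the genotypes overlapped.

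Of the 24 heme and iron genes tested, 6 had BACH1 KO responses below both Ctrl responses, against 6.08% of all genes, and 2 had them above, against 9.80%. Besides HMOX1 and FTH1, those below were 3 enzymes of heme synthesis and an iron release factor. CPOX, which acts late in heme synthesis, had responses of -0.60, -0.59 and -0.84 in BACH1 KO clones, against -0.42 and -0.27 in Ctrl clones. ALAS1, which makes the first committed intermediate, had responses of 0.12, 0.33 and 0.35 in BACH1 KO clones, against 0.62 and 0.39 in Ctrl clones. The differences were -0.33 for CPOX, -0.24 for ALAS1, -0.24 for ALAD, the step after ALAS1, and -0.13 for NCOA4, the receptor that brings ferritin to the lysosome, whose responses were of opposite sign in the genotypes. UROS, another enzyme of heme synthesis, and FLVCR1, a heme exporter, were blunted falls with a difference of 0.11 each. Without BACH1 KO clone 1 the differences were -0.37 for CPOX, -0.16 for ALAS1, -0.15 for ALAD, -0.15 for NCOA4, 0.06 for UROS and 0.12 for FLVCR1. HMOX1 alone of this list passed the test. Over the 24 genes the log2 difference was positive for 13 and negative for 11. As TPM differences 3 of the 24 were below and 5 above, against 5.58% and 11.5% of all genes, so the balance of this list depended on the scale.

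Glutathione and NADPH genes form the other arm of the antioxidant program. GCLM, the modifier subunit of glutamate-cysteine ligase, the first step towards glutathione (chr1:93885199-93909456, minus strand), measured 188, 275 and 245 TPM at 0 g/L and 111, 147 and 164 TPM at 4.5 g/L in BACH1 KO clones, against 119 and 154 TPM at 0 g/L and 45.9 and 50.6 TPM at 4.5 g/L in Ctrl clones. The GCLM responses of 0.76, 0.89 and 0.58 in BACH1 KO clones, against 1.36 and 1.58 in Ctrl clones, differed by -0.73 (SE 0.13, limma with Benjamini-Hochberg adjusted p = 0.743). Like HMOX1 it began higher with glucose in BACH1 KO clones, and its gain in TPM overlapped between genotypes. Of 18 glutathione genes, 3 were below (GCLM, SLC3A2 and MGST1, a microsomal glutathione transferase), against 6.08% of all genes, and 2 above, among them the exporter ABCC1, against 9.80%. SLC3A2, the heavy chain of the cystine transporter, had responses of 0.99, 0.92 and 0.40 in BACH1 KO clones, against 1.19 and 1.04 in Ctrl clones. Of 27 thioredoxin and NADPH genes 5 were above, against 9.80% of all genes, and 2 below, close to the 6.08% of all genes. The count above was 2 with size factors from the median ratio. AIFM2, a lipid peroxidation suppressor, had responses of 0.27, 0.16 and 0.01 in BACH1 KO clones, against -0.08 and -0.01 in Ctrl clones, and ME1, which makes NADPH from malate, had 0.58, 0.46 and 0.44, against 0.32 and 0.40. None of the 8 CNC and small MAF genes, the family of BACH1 and its partners, was non-overlapping, against 15.9% of all genes.

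Sequences upstream of the start are shown where they hold an element of the kind that BACH1 with MAF, or AP-1, binds. Each run is the 250 bases before the RefSeq start (GRCh38.p14), with the element in capitals, for genes with separated responses: CXCL8 at chr4:73740319-73740568 (plus strand) with the AP-1 element TGANTCA, and AIFM2 at chr10:70132826-70133075 (minus), ME1 at chr6:83431052-83431301 (minus) and SLC3A2 at chr11:62881449-62881698 (plus) with the longer antioxidant core TGANTCAGC.
CXCL8: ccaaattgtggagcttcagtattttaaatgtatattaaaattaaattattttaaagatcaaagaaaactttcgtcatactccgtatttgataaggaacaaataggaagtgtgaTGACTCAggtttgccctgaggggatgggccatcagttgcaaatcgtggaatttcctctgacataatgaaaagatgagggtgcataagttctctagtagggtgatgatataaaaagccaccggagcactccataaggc
AIFM2: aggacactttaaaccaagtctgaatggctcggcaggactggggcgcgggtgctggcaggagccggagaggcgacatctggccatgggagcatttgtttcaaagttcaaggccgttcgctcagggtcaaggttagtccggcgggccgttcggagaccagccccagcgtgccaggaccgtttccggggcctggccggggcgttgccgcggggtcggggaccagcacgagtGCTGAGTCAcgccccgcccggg
ME1: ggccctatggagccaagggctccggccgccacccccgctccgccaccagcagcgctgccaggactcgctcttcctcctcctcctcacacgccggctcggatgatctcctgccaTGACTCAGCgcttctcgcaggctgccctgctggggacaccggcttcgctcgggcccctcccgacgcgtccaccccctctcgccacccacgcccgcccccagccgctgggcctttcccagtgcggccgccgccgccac
SLC3A2: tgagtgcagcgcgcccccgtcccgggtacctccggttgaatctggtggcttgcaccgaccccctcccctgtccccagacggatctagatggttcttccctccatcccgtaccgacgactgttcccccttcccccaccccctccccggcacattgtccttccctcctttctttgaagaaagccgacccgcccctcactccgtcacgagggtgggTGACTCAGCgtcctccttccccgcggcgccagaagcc
The elements began 137 bases before the start in CXCL8 and ME1, 22 before in AIFM2, where it lies on the opposite strand, and 37 before in SLC3A2. The runs of CXCL8 and AIFM2 reach into the gene as GENCODE draws it and that of SLC3A2 lies wholly inside it, since the RefSeq starts used are further downstream, while the run of ME1 lies outside its gene. On either strand TGANTCA was found in 7.71% of 35116 promoters, TGANTCAGC, which contains it, in 1.36%, and the C/EBP-ATF element TGATGNAA, searched as well, in 3.62%. Promoters were matched for 104 of the 145 genes searched, and counted per gene, with a match in any of its promoters, these elements were found in 18, 6 and 2 of the 104, against 9.37%, 1.66% and 4.46% of the 27305 genes with a promoter. The genes searched included list members whose responses overlapped, and HMOX1 and FTH1 had no promoter to search. The longer core was found in 0 of 19 heme and iron genes and 1 of 12 chemokine and cytokine genes with a promoter. Such matches describe letters in a window and are not evidence of binding.

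Chemokine and cytokine genes were the group in which most members separated. As a group they were higher without glucose in both genotypes, with a median response of 1.54 in BACH1 KO clones and 1.92 in Ctrl clones. Not every member rose: IL11 had responses of -0.48, 0.44 and -0.09 in BACH1 KO clones, against 0.22 and -0.06 in Ctrl clones. The difference between genotypes was negative for 15 of 15 genes. BACH1 KO responses lay below both Ctrl responses for 9 of the 15, against 6.08% of all genes, all of them blunted rises, and above for none. The median difference of the 15 was -0.45, against 0.02 over all genes. None passed the test across all genes, and 6 had an unadjusted limma p below 0.05. The members were read in the same 5 clones, so they do not count as separate samples.

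CXCL8, the neutrophil attractant interleukin-8 (gene at chr4:73740519-73743716, plus strand), measured 54.6, 98.9 and 60.3 TPM at 0 g/L and 13.3, 22.3 and 17.2 TPM at 4.5 g/L in BACH1 KO clones, against 61.7 and 87.5 TPM at 0 g/L and 7.19 and 14.5 TPM at 4.5 g/L in Ctrl clones. At 0 g/L the genotypes overlapped, and at 4.5 g/L only BACH1 KO clone 1 lay within the Ctrl range. The CXCL8 responses were 1.95, 2.10 and 1.75 in BACH1 KO clones, against 2.94 and 2.52 in Ctrl clones, a difference of -0.79 (SE 0.17, limma with Benjamini-Hochberg adjusted p = 0.999). CSF2, which encodes GM-CSF, measured 4.69, 21.9 and 21.8 TPM at 0 g/L and 0.974, 2.83 and 2.85 TPM at 4.5 g/L in BACH1 KO clones, against 18.3 and 23.9 TPM at 0 g/L and 0.812 and 2.16 TPM at 4.5 g/L in Ctrl clones. Its difference was -0.97, with BACH1 KO clone 1 low at 0 g/L, and -0.62 without that clone. CSF1, the macrophage growth factor, measured 34.6, 41.1 and 66.2 TPM at 0 g/L and 21.8, 29.2 and 49.6 TPM at 4.5 g/L in BACH1 KO clones, against 50.6 and 52.9 TPM at 0 g/L and 21.3 and 27.2 TPM at 4.5 g/L in Ctrl clones. Its responses were 0.65, 0.48 and 0.41 in BACH1 KO clones, against 1.21 and 0.94 in Ctrl clones, a difference of -0.56. IL6, the acute-phase cytokine, measured 36.1, 54.6 and 68.0 TPM at 0 g/L and 30.4, 47.9 and 43.7 TPM at 4.5 g/L in BACH1 KO clones, against 27.5 and 46.2 TPM at 0 g/L and 16.2 and 25.0 TPM at 4.5 g/L in Ctrl clones. For IL6 every BACH1 KO clone was above both Ctrl clones with glucose, and the difference was -0.45.

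The other separated members were CXCL1 (-0.78), CSF3 (-0.73), CXCL3 (-0.54, and -0.35 without BACH1 KO clone 1), CXCL2 (-0.39, and -0.24 without BACH1 KO clone 2) and IL1A (-0.16). The nearest BACH1 KO and Ctrl responses were only 0.0018 apart for CXCL3 and 0.0041 apart for IL1A. CXCL1, CXCL2 and CXCL3 are chemokines that attract neutrophils, CSF3 encodes G-CSF and IL1A encodes interleukin-1 alpha. CXCL1 was 7.92, 5.14 and 6.76 TPM at 0 g/L and 4.75, 4.32 and 2.88 TPM at 4.5 g/L in BACH1 KO clones, against 6.24 and 12.4 TPM at 0 g/L and 1.96 and 3.76 TPM at 4.5 g/L in Ctrl clones. Several members were this low, and the count depended on the scale: with a pseudocount of 5 it was 5 of 15, and as TPM differences it was 2 of 15, CXCL1 and CSF1. Without any one clone it was 9 to 13, against 11.2% to 17.8% of all genes then.

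**Figure D3:**
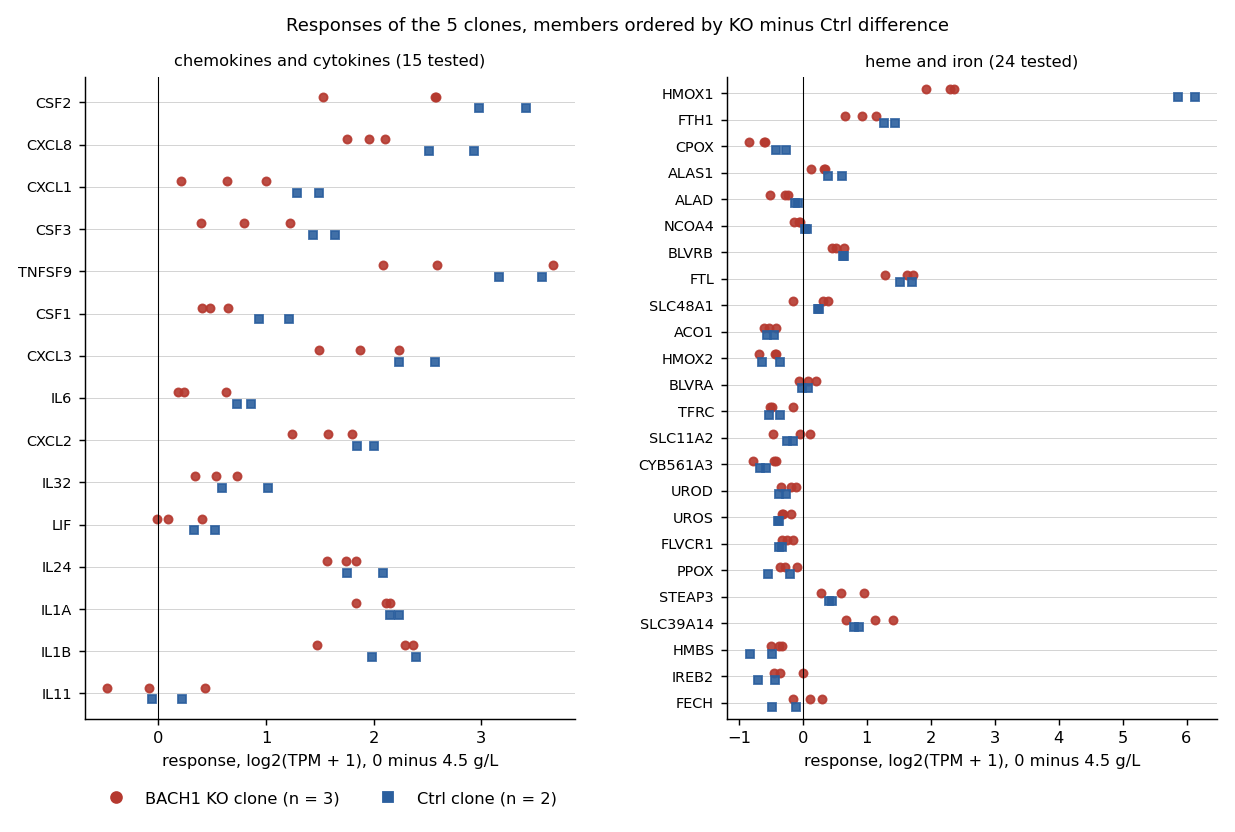
Response (log2 scale, 0 g/L minus 4.5 g/L) of each clone for the 15 chemokine and cytokine genes and the 24 heme and iron genes tested, with BACH1 KO points above Ctrl points on each gene's row. HMOX1 shows the widest separation, with 1.92 to 2.37 in BACH1 KO clones and 5.86 to 6.13 in Ctrl clones, and the 9 separated chemokine and cytokine genes separate by less.

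NF-kB subunits and feedback genes, which act upstream and downstream of these cytokines, had 5 of 19 members below, against 6.08% of all genes, and none above. BIRC3, an inhibitor of apoptosis that NF-kB induces, measured 3.84, 6.54 and 7.74 TPM at 0 g/L and 7.90, 13.1 and 13.7 TPM at 4.5 g/L in BACH1 KO clones, against 6.14 and 9.16 TPM at 0 g/L and 7.08 and 9.88 TPM at 4.5 g/L in Ctrl clones. The BIRC3 responses of -0.88, -0.90 and -0.75 in BACH1 KO clones, against -0.18 and -0.10 in Ctrl clones, make it an enlarged fall. NFKBIA, the inhibitor that holds NF-kB in the cytoplasm, had responses of -0.60, -0.50 and -0.21 in BACH1 KO clones, against -0.16 and 0.02 in Ctrl clones, and ICAM1, an adhesion molecule, had 0.25, 0.21 and 0.60, against 0.82 and 0.76. BCL3, a nuclear inhibitor family member, was negative in every BACH1 KO clone (-0.18, -0.35 and -0.33) and positive in both Ctrl clones (0.26 and 0.02). IRF1 was the fifth, with a difference of -0.19. None passed the test, and 4 had an unadjusted limma p below 0.05. The count below was 8 without BACH1 KO clone 2, against 13.9% of all genes then.

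Interferon-stimulated genes had 7 of 26 members below and none above, where the shares of all genes were 6.08% and 9.80%. IRF7, the regulator of type I interferon, had responses of 0.71, 0.63 and 0.57 in BACH1 KO clones, against 0.96 and 1.04 in Ctrl clones. HLA-C, an antigen-presenting molecule, had 0.35, 0.21 and 0.32 in BACH1 KO clones, against 0.52 and 0.48, and OAS3, a sensor of double-stranded RNA, had -0.80, -1.18 and -1.13, against -0.68 and -0.64. The count below was 2 after quantile scaling, 3 as TPM differences and 4 with a filter at 10 TPM. It was 12 without BACH1 KO clone 3, against 11.2% of all genes then, so it was not stable.

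Immediate early genes respond within minutes to growth factors and stress. Of 37, 5 were below, all of them blunted rises, against 6.08% of all genes, and none was above. The count below was 21 without BACH1 KO clone 2, against 13.9% of all genes then. Without BACH1 KO clone 1 there were 5 below and 5 above, against 15.2% and 19.0% of all genes then. ARC, known from synapses and serum responses, measured 47.6, 88.7 and 62.1 TPM at 0 g/L and 0.159, 0.0351 and 0.153 TPM at 4.5 g/L in BACH1 KO clones, against 110.3 and 106 TPM at 0 g/L and 0.0357 and 0.0519 TPM at 4.5 g/L in Ctrl clones. The separation of ARC lay at 0 g/L, where every BACH1 KO clone was below both Ctrl clones. NR4A1, an orphan nuclear receptor, had responses of 4.43, 5.12 and 4.30 in BACH1 KO clones, against 5.29 and 5.23 in Ctrl clones, and IER3, a survival factor, had 0.67, 0.87 and 0.61, against 1.14 and 0.96. FOS, a subunit of AP-1, measured 48.5, 84.2 and 81.2 TPM at 0 g/L and 1.73, 1.48 and 1.81 TPM at 4.5 g/L in BACH1 KO clones, against 95.2 and 95.3 TPM at 0 g/L and 1.62 and 1.51 TPM at 4.5 g/L in Ctrl clones. FOS, like ARC, was lower in every BACH1 KO clone at 0 g/L, with clone 1 the lowest of the 3. Without BACH1 KO clone 1 the difference went from -0.51 to -0.25 for FOS and from -0.84 to -0.60 for ARC. BTG2, an antiproliferative gene, completed the 5, with a difference of -0.54, or -0.31 without BACH1 KO clone 3.

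Of 9 circadian genes, 2 were below and 1 above, where the shares of all genes were 6.08% and 9.80%. BHLHE41, a repressor of the clock, measured 7.55, 17.7 and 22.9 TPM at 0 g/L and 2.55, 4.53 and 6.85 TPM at 4.5 g/L in BACH1 KO clones, against 17.0 and 20.6 TPM at 0 g/L and 2.54 and 0.654 TPM at 4.5 g/L in Ctrl clones. Its difference of -1.48 (SE 0.36) did not pass the test. Ctrl clone 2 was well below Ctrl clone 1 at 4.5 g/L, and the difference was -0.80 without Ctrl clone 2 and -2.16 without Ctrl clone 1. NR1D1, the heme-binding nuclear receptor REV-ERB alpha, measured 16.5, 32.3 and 41.3 TPM at 0 g/L and 5.43, 6.33 and 10.7 TPM at 4.5 g/L in BACH1 KO clones, against 32.6 and 30.1 TPM at 0 g/L and 4.70 and 5.34 TPM at 4.5 g/L in Ctrl clones, a difference of -0.60. The NR1D1 difference was -0.41 without BACH1 KO clone 1. NPAS2, an activator that pairs with BMAL1, was above, with a difference of 0.10, and with size factors from the median ratio no circadian gene was above.

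Among matrix proteases and their inhibitors 4 of 18 were below, against 6.08% of all genes, and 1 was above. The count below was 8 without BACH1 KO clone 2 and 7 as TPM differences, against 13.9% and 5.58% of all genes then. Without BACH1 KO clone 1 there were 5 above, against 19.0% of all genes then. SERPINB2, the plasminogen activator inhibitor 2, measured 19.3, 15.4 and 5.10 TPM at 0 g/L and 3.88, 1.15 and 0.494 TPM at 4.5 g/L in BACH1 KO clones, against 21.4 and 22.2 TPM at 0 g/L and 1.20 and 1.45 TPM at 4.5 g/L in Ctrl clones. MMP3, a stromelysin, measured 9.57, 14.7 and 4.31 TPM at 0 g/L in BACH1 KO clones, against 15.4 and 17.5 TPM in Ctrl clones, and was below 1 TPM in every library at 4.5 g/L. These genes were at trace levels or a few TPM with glucose, and the genotypes separated without it. MMP10, another stromelysin, was 2.57, 6.15 and 1.49 TPM at 0 g/L in BACH1 KO clones, against 7.20 and 7.97 TPM in Ctrl clones, and was below 1 TPM in every library at 4.5 g/L. TIMP3, an inhibitor of metalloproteinases, was listed at 0 to 0.0161 TPM in BACH1 KO libraries in either medium, against 10.4 and 12.2 TPM at 0 g/L and 3.47 and 4.0 TPM at 4.5 g/L in Ctrl clones. Its response near 0 in BACH1 KO clones is thus that of a gene hardly detected there, and not of a gene detected and held level. TIMP3 reached the limit of 5 TPM only in the Ctrl libraries at 0 g/L, the group where it was high. Its place among the 4 below is therefore not separate support for a difference in response.

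DNA replication genes were lower without glucose in both genotypes, with a median response of -0.86 in BACH1 KO clones and -0.75 in Ctrl clones. Of 31, 7 were below, all of them enlarged falls, against 6.08% of all genes, and none was above. MCM2, a subunit of the replicative helicase, measured 36.7, 47.6 and 46.5 TPM at 0 g/L and 66.0, 79.2 and 80.2 TPM at 4.5 g/L in BACH1 KO clones, against 42.0 and 46.2 TPM at 0 g/L and 59.3 and 64.2 TPM at 4.5 g/L in Ctrl clones. For MCM2 the genotypes separated at 4.5 g/L only, with BACH1 KO clones higher. CCNE2, cyclin E2, was lower in every BACH1 KO clone in both media, and at 0 g/L it measured 14.6, 13.7 and 12.2 TPM in BACH1 KO clones, against 19.4 and 19.8 TPM in Ctrl clones. PCNA, the polymerase clamp, had responses of -0.94, -0.65 and -0.89 in BACH1 KO clones, against -0.60 and -0.48 in Ctrl clones. The count was 4 as TPM differences, 13 without BACH1 KO clone 1 and 11 without clone 2. The shares of all genes below were then 5.58%, 15.2% and 13.9%. In a bulk sample, fewer cells in S phase and less of each transcript per cell cannot be told apart.

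Mitotic genes did not share this direction. Of 28, 6 were above and 2 below, against 9.80% and 6.08% of all genes. AURKB, the kinase of the chromosomal passenger complex, had responses of -0.84, -0.90 and -0.60 in BACH1 KO clones, against -1.02 and -1.04 in Ctrl clones, and BIRC5, its partner survivin, had -0.86, -0.86 and -0.72, against -0.97 and -1.01. CENPF, a kinetochore protein, was below, with -1.14, -1.15 and -1.26 in BACH1 KO clones, against -0.92 and -1.04 in Ctrl clones. The count above was 11 without BACH1 KO clone 1, without BACH1 KO clone 2 or without Ctrl clone 1. The shares of all genes above were then 19.0%, 18.3% and 19.7%.

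Glycolysis and glucose uptake had 7 of 26 genes above and 1 below, against 9.80% and 6.08% of all genes. HK2, the hexokinase that traps glucose in the cell, measured 25.3, 24.6 and 19.3 TPM at 0 g/L and 14.5, 13.4 and 12.6 TPM at 4.5 g/L in BACH1 KO clones, against 22.6 and 23.8 TPM at 0 g/L and 17.4 and 17.3 TPM at 4.5 g/L in Ctrl clones. The difference of 0.33 for HK2 lay in the lower level of BACH1 KO clones with glucose. SLC2A1, the glucose transporter GLUT1, measured 160.4, 182 and 201 TPM at 0 g/L and 199, 310.2 and 335 TPM at 4.5 g/L in BACH1 KO clones, against 133 and 132 TPM at 0 g/L and 230.1 and 245 TPM at 4.5 g/L in Ctrl clones. Every BACH1 KO clone was above both Ctrl clones for SLC2A1 at 0 g/L, and the levels overlapped at 4.5 g/L. The SLC2A1 difference was 0.23, and 0.08 without BACH1 KO clone 1. GAPDH had responses of -0.05, -0.12 and -0.05 in BACH1 KO clones, against -0.20 and -0.27 in Ctrl clones, PFKP was slightly positive in every BACH1 KO clone and negative in both Ctrl clones, and PGK1 was below by 0.06 on the log2 scale. With size factors from the median ratio 3 of the 26 genes were above and 1 below, against 6.82% and 8.40% of all genes under that scaling.

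The unfolded protein response and ATF4 programs, by contrast, had few members that separated the genotypes, and this depended on single BACH1 KO clones. Among endoplasmic reticulum chaperone and unfolded protein response genes 1 of 30 (WFS1) was non-overlapping, and among ATF4 and CHOP targets 2 of 33 (SLC3A2 and ATF5), against 15.9% of all genes. The 33 targets had median responses of 1.52, 0.99 and 0.34 in BACH1 KO clones, against 0.97 and 0.90 in Ctrl clones. Without BACH1 KO clone 1, 10 of the 33 were below and none above, against 15.2% and 19.0% of all genes then. Without BACH1 KO clone 3, 9 of the 30 were above and 1 below, and 6 of the 33 were above and 3 below. The shares of all genes were then 19.0% above and 11.2% below. HSPA5, the chaperone BiP, measured 1404, 1106 and 985 TPM at 0 g/L and 149, 165 and 169 TPM at 4.5 g/L in BACH1 KO clones, against 834 and 994 TPM at 0 g/L and 153 and 158 TPM at 4.5 g/L in Ctrl clones. DDIT3, which encodes CHOP, had responses of 2.70, 2.37 and 2.22 in BACH1 KO clones, against 2.49 and 2.40 in Ctrl clones. ATF4 itself had 1.24, 0.75 and 0.18 in BACH1 KO clones, against 0.86 and 0.72 in Ctrl clones. These responses overlapped, which does not show that the programs were equal. Ribosomal protein genes (2 of 33 above), aminoacyl-tRNA synthetases (3 of 20 above) and proteasome subunits (3 of 27 above) had none below, against 9.80% of all genes above and 6.08% below. These counts depended on single clones. Without BACH1 KO clone 1, 22 of the 27 proteasome subunits were above and none below, and 5 of the 20 synthetases were above and 5 below. The shares of all genes were then 19.0% above and 15.2% below. Ribosomal protein genes had 14 of 33 above without BACH1 KO clone 2 and also without Ctrl clone 1, against 18.3% and 19.7% of all genes. Of 26 heat shock proteins 3 separated, a share under the 15.9% of all genes, and were below: DNAJB4, a co-chaperone, with responses of 2.77, 3.53 and 3.20 in BACH1 KO clones, against 3.64 and 3.69 in Ctrl clones, and CRYAB and HSPA2, a small heat shock protein and an HSP70, with differences of -0.81 and -0.57. The differences without BACH1 KO clone 1 were -0.43 for CRYAB, -0.46 for HSPA2 and -0.30 for DNAJB4, which had -0.50 with it. Without that clone 8 of the 26 were above and 3 below, against 19.0% and 15.2% of all genes then. Without BACH1 KO clone 3 there were 12 below, against 11.2% of all genes then. Autophagy and lysosome genes (3 above and 2 below of 29) and nuclear genes of the respiratory chain (3 above and 1 below of 30) are given as counts only. So are N-glycan and hexosamine genes (1 above and 3 below of 26). Among all genes the shares were 9.80% above and 6.08% below.

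**Figure D4:**
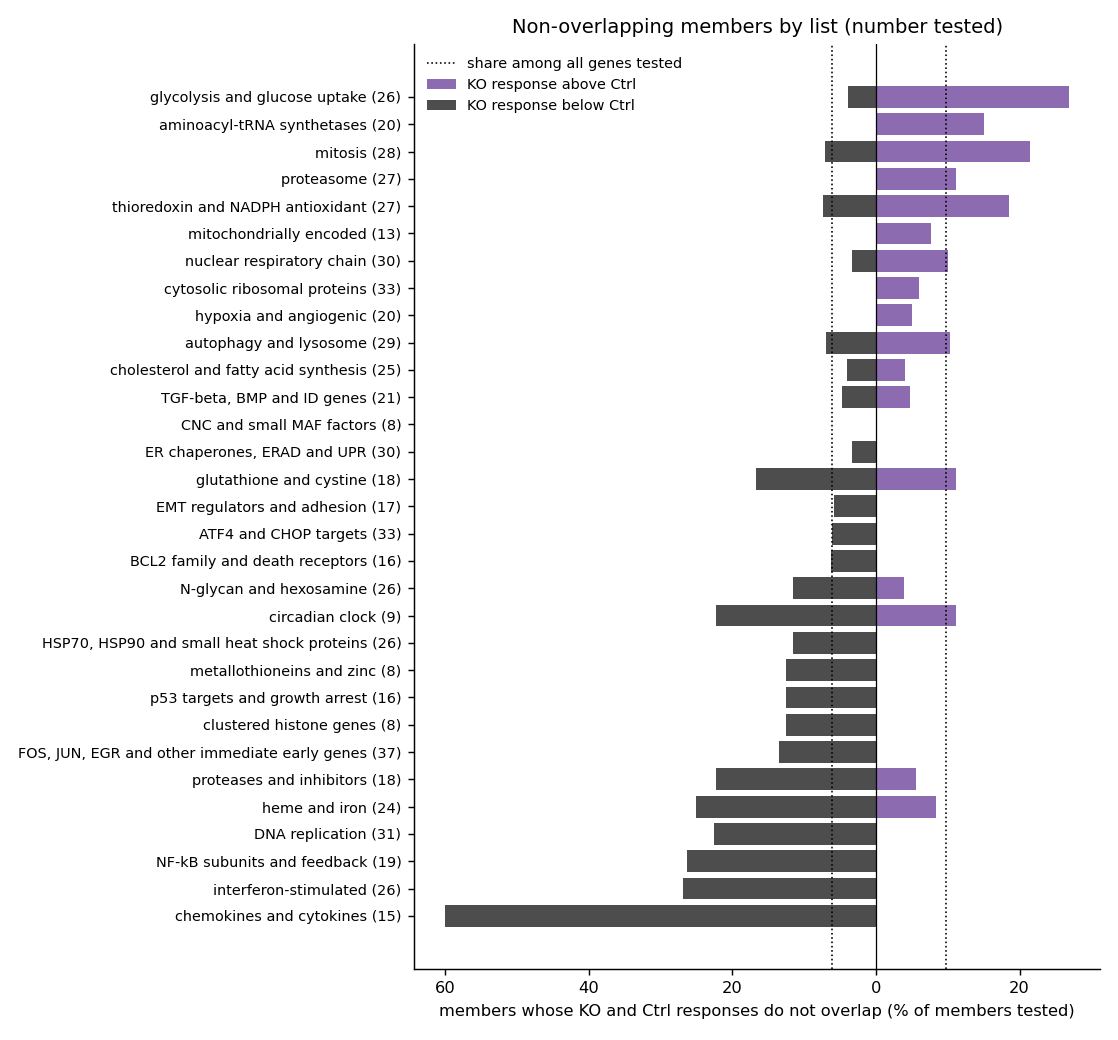
Share of the tested members of each gene group (percent, number tested in brackets) whose BACH1 KO responses lay above both Ctrl responses (bars to the right) or below both (bars to the left), with dotted lines at the shares among all genes, 9.80% and 6.08%. Chemokines and cytokines had 9 of 15 below and none above, and glycolysis and glucose uptake had 7 of 26 above and 1 below.

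AP000781.2, a transcript named after its clone and with no further annotation here, measured 11.7, 15.9 and 4.33 TPM at 0 g/L and 25.2, 32.0 and 24.6 TPM at 4.5 g/L in BACH1 KO clones, against 11.3 and 12.2 TPM at 0 g/L and 0.329 and 0.436 TPM at 4.5 g/L in Ctrl clones. It moved down in every BACH1 KO clone (-1.05, -0.96 and -2.27) and up in both Ctrl clones (3.21 and 3.20), a difference of -4.63 (SE 0.36, limma with Benjamini-Hochberg adjusted p = 0.0032). RNA5SP217, a 5S ribosomal RNA pseudogene of 91 bases at chr6:127317883-127317973 (minus strand), measured 5.02, 4.39 and 3.94 TPM at 0 g/L and 6.97, 4.84 and 3.18 TPM at 4.5 g/L in BACH1 KO clones, against 7.10 and 5.84 TPM at 0 g/L in Ctrl clones, and was listed at 0 in both Ctrl clones at 4.5 g/L. Its difference was -2.99 (SE 0.29, limma with Benjamini-Hochberg adjusted p = 0.014). With glucose both were higher in every BACH1 KO clone, and without glucose RNA5SP217 was lower in every BACH1 KO clone while AP000781.2 overlapped. The adjusted p of AP000781.2 was 0.277 with no filter and 0.0728 with no pairing of media within a clone. That of RNA5SP217 was 0.277 with no filter, 0.10 with a pseudocount of 5, 0.0835 with no pairing, and 0.0543, 0.0508, 0.201 and 0.112 without BACH1 KO clone 1, BACH1 KO clone 3, Ctrl clone 1 and Ctrl clone 2. The number of reads behind these levels is not known, since TPM does not keep it.

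Other opposite responses included FAM133B, at chr7:92560758-92590393 (minus strand). It measured 19.5, 23.0 and 18.8 TPM at 0 g/L and 52.4, 36.5 and 44.2 TPM at 4.5 g/L in BACH1 KO clones, against 36.3 and 41.9 TPM at 0 g/L and 30.6 and 32.8 TPM at 4.5 g/L in Ctrl clones. BACH1 KO clones were lower at 0 g/L and higher at 4.5 g/L, with a difference of -1.36 (SE 0.21, limma with Benjamini-Hochberg adjusted p = 0.333). HIST2H2AA3, a histone H2A gene, was also opposite, with a difference of -2.86, but summed with its near-identical copy HIST2H2AA4 the difference was -0.61 and the responses overlapped. S100A5, a calcium-binding protein, had responses of -0.36, -0.26 and -0.97 in BACH1 KO clones, against 0.60 and 0.55 in Ctrl clones. ATXN3, the deubiquitinase altered in Machado-Joseph disease, had -0.15, -0.25 and -0.10, against 0.26 and 0.20. In the other direction GABBR2, a subunit of the GABA-B receptor, had 1.09, 0.44 and 0.12 in BACH1 KO clones, against -1.12 and -0.75 in Ctrl clones, and CRTC3, a coactivator of CREB, had 0.01, 0.19 and 0.02, against -0.45 and -0.31.

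Among blunted rises XIRP1, an actin-binding repeat protein of muscle, had responses of 4.28, 4.70 and 3.59 in BACH1 KO clones, against 5.53 and 5.40 in Ctrl clones, and was below 1 TPM in every library at 4.5 g/L. Among enlarged rises LAMP3, a lysosomal membrane protein, measured 36.4, 6.20 and 6.71 TPM at 0 g/L and 13.0, 0.659 and 1.26 TPM at 4.5 g/L in BACH1 KO clones, against 22.2 and 16.4 TPM at 0 g/L and 11.7 and 9.31 TPM at 4.5 g/L in Ctrl clones. LAMP3 levels in BACH1 KO clones 2 and 3 were below both Ctrl clones in either medium, while clone 1 was above them, and the responses still separated (difference 0.96, SE 0.23). LGR4, a receptor of R-spondins, had responses of 0.74, 1.29 and 0.94 in BACH1 KO clones, against 0.50 and 0.33 in Ctrl clones. Blunted falls included TRMT2A, a tRNA methyltransferase at chr22:20111875-20117392 (minus strand), with 19.8, 21.9 and 20.5 TPM at 0 g/L and 22.9, 24.2 and 23.7 TPM at 4.5 g/L in BACH1 KO clones, against 17.6 and 17.5 TPM at 0 g/L and 28.6 and 33.2 TPM at 4.5 g/L in Ctrl clones. For TRMT2A the BACH1 KO clones were higher at 0 g/L and lower at 4.5 g/L. PELP1, a coregulator of nuclear receptors, had responses of -0.53, -0.44 and -0.35 in BACH1 KO clones, against -1.03 and -0.94 in Ctrl clones. The widest gaps among genes classed as enlarged falls belonged to RPL3P4 and RHEBP2, which are pseudogenes. RPL3P4 had responses of -5.59, 0.13 and -6.15 in BACH1 KO clones, against 2.80 and 1.46 in Ctrl clones. It thus rose in Ctrl clones, and BACH1 KO clone 2 kept it out of the opposite class. With RPL3P4 summed with RPL3, and RHEBP2 with RHEB, the responses overlapped with differences of 0.02 and 0.01. The kinase-regulator pseudogene CKS1BP3, among the widest blunted rises with a difference of -2.75, had -0.13 when summed with CKS1B.

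In several genes with wide gaps the genotypes differed mainly in 1 medium. GTDC1, a glycosyltransferase-like gene, measured 13.9, 11.9 and 12.6 TPM at 0 g/L and 12.1, 10.5 and 11.4 TPM at 4.5 g/L in BACH1 KO clones, against 12 and 12.4 TPM at 0 g/L and 16.0 and 15.4 TPM at 4.5 g/L in Ctrl clones. Its levels overlapped at 0 g/L and were lower in every BACH1 KO clone at 4.5 g/L. PAG1, a membrane adaptor of Src family kinases, measured 4.73, 3.79 and 5.15 TPM at 0 g/L and 2.27, 2.58 and 2.68 TPM at 4.5 g/L in BACH1 KO clones, against 5.03 and 3.21 TPM at 0 g/L and 4.85 and 3.49 TPM at 4.5 g/L in Ctrl clones. PAG1 too was lower with glucose in every BACH1 KO clone and overlapped without it. REEP2, which shapes the endoplasmic reticulum, measured 3.17, 6.74 and 4.43 TPM at 0 g/L and 3.84, 5.82 and 5.77 TPM at 4.5 g/L in BACH1 KO clones, against 4.06 and 3.91 TPM at 0 g/L and 7.61 and 7.92 TPM at 4.5 g/L in Ctrl clones, again lower in BACH1 KO clones with glucose only. MFAP2, a microfibril protein, was close to Ctrl in BACH1 KO clone 1 (9.57 TPM at 0 g/L) and listed at 0 at 4.5 g/L in clones 2 and 3, so its enlarged rise joins clones of unlike level.

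Single members of other groups separated as well. MT1F, a metallothionein that binds zinc and copper, measured 3.05, 15.4 and 5.66 TPM at 0 g/L and 4.84, 12.1 and 4.27 TPM at 4.5 g/L in BACH1 KO clones, against 12 and 11.7 TPM at 0 g/L and 5.20 and 7.24 TPM at 4.5 g/L in Ctrl clones. The MT1F difference was -0.80, and -0.51 without BACH1 KO clone 1. It was the only one of 8 metallothionein and zinc genes to separate, a share under the 15.9% of all genes. CCN2, a matricellular protein induced by TGF-beta, had responses of 0.74, 1.15 and 0.68 in BACH1 KO clones, against 0.59 and 0.52 in Ctrl clones. S100A4, a calcium-binding protein used here as a marker of MDA-MB-231 cells, had responses of -0.22, 0.03 and -0.12 in BACH1 KO clones, against 0.08 and 0.35 in Ctrl clones, and its level was lower in every BACH1 KO library than in any Ctrl library. None of these passed the test.

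**Figure D5:**
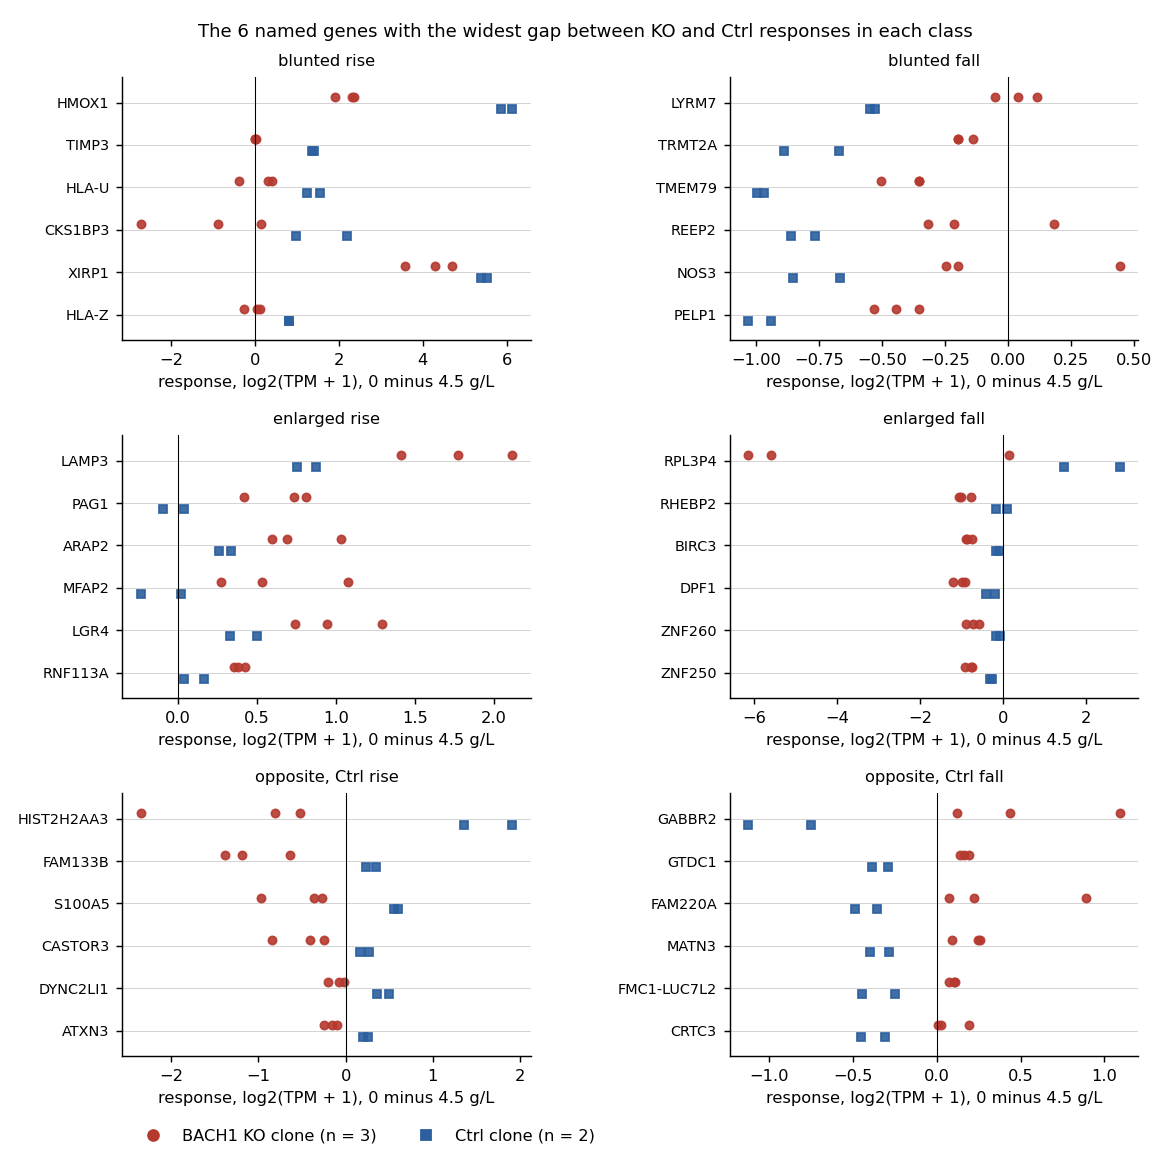
Responses (log2 scale) of each clone for the genes with the widest gap between genotypes in each pattern, with BACH1 KO above Ctrl for each gene. TRMT2A lies between -0.20 and -0.14 in BACH1 KO clones and at -0.67 and -0.89 in Ctrl clones.

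Of the 5 candidate genes of the study, CST7, an inhibitor of cysteine proteases, was tested and CEMIP, CXCL14, NGFR and PGF were below the limit on TPM. CST7 had responses of 1.37, 0.77 and 1.05 in BACH1 KO clones, against 0.68 and 0.65 in Ctrl clones, an enlarged rise with a difference of 0.40. The difference was 0.25 without BACH1 KO clone 1. The level of CST7 was lower in every BACH1 KO library than in any Ctrl library, so the larger ratio started from a lower level. In TPM its gain was 7.86, 2.94 and 5.55 in BACH1 KO clones, against 10.7 and 8.63 in Ctrl clones, so the direction of CST7 depended on the scale. The study chose these candidates on the same libraries, so their values here are no independent evidence. It also measured them by qPCR in wild-type and BACH1 knockout cells, which lies outside this comparison.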

How the data were processed

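Total RNA from the 10 libraries was extracted with TRIzol and sequenced after Illumina TruSeq preparation, and the deposited table holds TPM per gene symbol, which the authors made with bcl2fastq 2.19 and kallisto 0.44.0 on GRCh38.p12, per the submitters' processing notes. TPM keeps no read depth, so the precision of low values is unknown, and 12259 to 12910 genes were at 1 TPM or more per library. Of 36459 symbols 27 were dates (0.107% to 0.151% of TPM) and were left out. Responses of log2(TPM + 1) were compared with limma 3.58.1 (R 4.3.3, moderated, trend on mean level, Benjamini-Hochberg over 10626 genes). The column for each medium was paired within a clone by the labels. The correlation of paired deviations across genes was 0.68, 0.51 and 0.60 in BACH1 KO clones and 0.12 in Ctrl clones. The p-values measure the spread between clones. The code was tested on simulated data.

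Members and gene lists were chosen with earlier results of these data known. Named genes were those called, the 6 with the widest gap in each of 6 patterns (clone-based symbols aside), up to 3 separated members of each of 36 lists, the full chemokine and heme lists, and BACH1, HMOX1, ATF4 and the study's candidates. NFKBIA, IRF1, DDIT3, HSPA5, FOS, MMP3, SLC2A1, MGST1, PCNA and PGK1 were outside this rule and were chosen after their values were seen. Alternatives were other pseudocounts, filters and scalings, no pairing, no trend, leaving out each clone and linear TPM. Summing near-identical copies was chosen after seeing the data. Positions are from GENCODE v44 on GRCh38.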

Additional observations from a re-analysis of the deposited data

Results flagged for a closer look

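The response difference, BACH1 KO minus Ctrl, passed the test across all genes for HMOX1 (-3.80), AP000781.2 (-4.63) and RNA5SP217 (-2.99), each by limma with Benjamini-Hochberg adjustment. For the genes that follow, every BACH1 KO clone moved one way and both Ctrl clones the other, the difference did not pass that test, and the opposite direction itself was not tested. Clones moved down in BACH1 KO and up in Ctrl for HIST2H2AA3 (difference -2.86), FAM133B (-1.36), S100A5 (-1.11), BCL3 (-0.43), ATXN3 (-0.39) and NCOA4 (-0.13). Clones moved up in BACH1 KO and down in Ctrl for GABBR2 (1.49), GTDC1 (0.50), CRTC3 (0.46), AIFM2 (0.19) and PFKP (0.16). Of these, NCOA4, AIFM2 and PFKP had responses close to 0 in both genotypes. The part of depth or of the clones' own histories in these patterns was not tested.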

How the results depend on the processing

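With 3 and 2 clones the limits are the number of clones, an unknown read depth and the share of 1 clone, BACH1 KO 1, in the balance of blunted and enlarged responses. The test called 0 genes with no filter on low values (828 at an unadjusted limma p below 0.05), 1 with no replicate block, that is without pairing the media of a clone (HMOX1, with 71 unadjusted), and 2 to 6 with 1 clone left out, the 6 without BACH1 KO clone 2. With no filter BACH1 KO responses lay above for 1785 genes and below for 1670, and with a clone left out, where fewer clones overlap by construction, for 1943 to 2693 and 1195 to 1890. Blunted rises were 439 with a filter at 1 TPM, 1004 with no filter, 529 with size factors from the median ratio and 400 to 721 with a clone left out. Blunted falls were 441 with those size factors and 1231 to 2236 with a clone left out. Enlarged rises were 408 with no filter, 205 with size factors and 267 to 618, and enlarged falls 486 with no filter and 592 to 1109. Opposite patterns with a rise in Ctrl were 95 at 1 TPM, 180 with no filter, 85 with size factors and 109 to 208, and with a fall in Ctrl 86, 178 with no filter, and 129 to 172. The difference on the TPM scale had the other sign for CST7 (-4.20), CXCL2 (1.42), DDIT3 (5.40), FTH1 (3497), GCLM (7.07), HMOX1 (802) and IL1A (0.58), which follows from a difference taking the place of a ratio. Summed with copies, RPL3P4 (0.0236) and RHEBP2 (0.0066) reversed. With a clone left out the difference ranged from -0.33 to 0.21 for ATF4, from -0.15 to 0.0904 for DDIT3 and from -0.16 to 0.0648 for FTL, so these have no settled direction. For 88 named genes under 18 settings 1459 of 1489 values kept direction and call, 10 lost the call, 4 gained it and 16 reversed.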
